A study of Mus musculus with 2 samples.

Results

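The genes described are Gmnc (also called Gemc1), geminin (Gmnn) and the p53 family, Trp73, Trp63 and Trp53, taken by symbol from the deposited gene table. All 5 symbols were found once among the 32287 genes, and all 5 passed the low count filter of the tests. Gmnc codes for a coiled-coil protein related to geminin, and geminin itself binds and blocks the replication licensing factor Cdt1. Gmnc and its relative multicilin (Mcidas) act with E2F4, E2F5 and DP1 to switch on the genes of multiciliated cells, and geminin can bind both proteins. Trp73 codes for p73, a transcription factor needed for multiciliated cells of airway, oviduct and ependyma and a target of Gmnc. Its relatives are p63, known for basal cells of stratified epithelia, and p53, the DNA damage regulator.

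Ependymal cells line the ventricles of the brain and move the fluid there with many cilia each. Primary cultures were made from lateral ventricular walls of newborn (P0-P2) mice, grown to confluence in serum, freed of other cells by shaking, and placed in serum-free medium for 2 days of differentiation. The study has 1 group of 2 cultures, of the C57BL/6N substrain for replicate 1 and C57BL/6J for replicate 2, whose labels name no mutation and no agent besides the change of medium, and 1 single-cell 3′ RNA library stands for each. Each cell carries a deposited population name, 1 of 14 that include unannotated cells, and 1 of 5 cell cycle classes (G0, G1, S, S/G2 and G2/M). The series title names an endocycle, a modified cell cycle, during multiciliated cell differentiation, and the comparisons here follow the 5 genes along the named stages and across the cycle classes.

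Replicate 1 held 12028 cells with a median of 12708 unique molecular identifiers (UMIs), and replicate 2 held 4373 cells with a median of 14409. Substrain, culture and library are the same split and cannot be told apart, and 13 cell barcodes occurred in both libraries. The libraries' makeup differed: MCCs (multiciliated cells) were 17.0% of cells in replicate 1 and 6.04% in replicate 2. Median UMIs per cell also differed between populations. In replicate 1 they went from 4591 in neuroblasts to 20650 in late deuterosomal cells, with 10184 in progenitors II. Shares of cells with a UMI were therefore taken after thinning each cell to 5000 UMIs, which kept 30 of 81 and 69 of 123 neuroblasts. The marker lists of microglia, oligodendrocytes, oligodendrocyte precursors (OPCs), neuroblasts and fibroblasts were each highest in the population of that name in both libraries. Microglia held 5409 and 6896 CPM summed over 5 microglial markers, with at most 26.7 CPM elsewhere. CPM is a gene's UMIs divided by all UMIs of the same cells, scaled as ppm. The 5 OPC markers summed to 1777 and 2546 CPM in OPCs and 1677 and 1629 CPM in oligodendrocytes. The 5 multiciliated markers (Foxj1, Tmem212, Ccdc153, Rsph1 and Dynlrb2) summed to 4643 and 4636 CPM in MCCs and 6004 and 5614 CPM in mid deuterosomal cells. Microglia held 947 CPM of these in replicate 1 and 144 CPM in replicate 2, and OPCs 513 and 61.1 CPM. The 4 cycling markers summed to 2255 and 2689 CPM in cycling progenitors and 1503 and 3306 CPM in OPCs. The sources used here do not give the way populations and classes were assigned. They may rest on the same expression values, geminin included, which is a gene often used to call S phase, so a difference between populations or classes is not independent of their naming.

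Coordinates are those of mm10 in the GENCODE M21 annotation. Gmnc (ENSMUSG00000068428) spans chr16:26913553-26991652 on the minus strand, and Trp63 (ENSMUSG00000022510) spans chr16:25683763-25892102 on the plus strand. The gap between them is 1021 kb and holds 8 annotated genes, among them Cldn1, Cldn16 and Il1rap. Geminin (ENSMUSG00000006715) lies at chr13:24751845-24761923 on the minus strand, Trp53 (ENSMUSG00000059552) at chr11:69580359-69591873 on the plus strand, and Trp73 (ENSMUSG00000029026) at chr4:154056253-154140208 on the minus strand. Trp73 has 6 coding transcripts with 5 different starts and 5 different ends, and Trp63 has 8 with 3 starts and 5 ends. Counts of 3′ ends sum these transcripts, so full-length (TA) and shortened (ΔN) forms are not separated here. Gmnc has 3 coding transcripts with 3 different starts. The 250 bases before the outermost start and 1 inner start of Gmnc and before the inner start of Trp73 follow, from RefSeq (GRCm38.p6) on the strand of the gene, because the values of each gene add transcripts from such separate starts. Capitals mark a CCAAT box.
Gmnc outer start, chr16:26991653-26991902: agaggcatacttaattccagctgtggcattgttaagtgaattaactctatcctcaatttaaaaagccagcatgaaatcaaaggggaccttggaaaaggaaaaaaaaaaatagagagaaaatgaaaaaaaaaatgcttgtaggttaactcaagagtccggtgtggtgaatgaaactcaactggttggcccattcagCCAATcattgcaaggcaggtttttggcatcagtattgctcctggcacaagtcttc
Gmnc inner start, chr16:26968246-26968495: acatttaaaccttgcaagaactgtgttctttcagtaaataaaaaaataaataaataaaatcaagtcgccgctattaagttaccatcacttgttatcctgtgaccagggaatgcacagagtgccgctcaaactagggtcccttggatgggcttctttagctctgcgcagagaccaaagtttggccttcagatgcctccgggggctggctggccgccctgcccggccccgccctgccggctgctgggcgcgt
Trp73 inner start, chr4:154097174-154097423: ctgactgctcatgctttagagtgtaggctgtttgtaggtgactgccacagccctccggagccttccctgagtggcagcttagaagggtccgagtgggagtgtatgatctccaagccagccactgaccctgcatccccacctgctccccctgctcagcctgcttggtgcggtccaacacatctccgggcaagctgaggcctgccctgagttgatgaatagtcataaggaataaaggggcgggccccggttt

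A set of 8 short motifs were searched on both strands of each 250-base window: the E2F forms TTTGGCGC, TTTCGCGC and TTCCCGCC, the forkhead form TGTTTAC and its variant form TGTTTGC, the CCAAT box, the cell cycle (CHR) element TTTGAA and the RFX factor element GTTGCC. The outer Gmnc window held 1 CCAAT box at 55 bases before the start, a match that 33.8% of 32851 RefSeq promoters hold. The inner Gmnc window and the inner Trp73 window held none of the 8. The window before the outer Trp73 start, which overlaps an annotated exon and is not printed, held TTCCCGCC at 103 and at 238 bases before the start, a form found in 1.86% of promoters. The Trp53 window held a CCAAT box at 8 bases and GTTGCC at 144 bases before the start, which 33.8% and 10.4% of promoters hold. A match describes letters in these windows and is not a measured site.

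Gmnc was present before the multiciliated lineage was entered, rose from progenitors I to progenitors II, fell to its lowest lineage level in mid deuterosomal cells, and was high again in MCCs. Its level was 21.3 CPM in replicate 1 and 16.5 CPM in replicate 2 in progenitors I, and 47.5 and 40.6 CPM in progenitors II. Early deuterosomal cells, the first stage of centriole amplification, held 29.6 and 27.8 CPM. Mid deuterosomal cells held 8.88 and 5.18 CPM from 156 and 40 UMIs. Both libraries thus had the same order over these 4 populations, and neighbouring pairs did not overlap. Late deuterosomal cells held 12.8 and 9.60 CPM, early MCCs 16.5 and 13.7 CPM and MCCs 36.0 and 24.6 CPM. Of all populations, unannotated cells had the highest mean level, 49.8 and 48.4 CPM, and their Foxj1 level was 461 and 571 CPM. Cycling progenitors held 14.9 and 14.4 CPM, 2.09-fold below the mean of progenitors I and II (log2 -1.06 ± 0.15, edgeR adjusted p = 5.29e-06, 38.6% of genes passed).

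**Figure D1:**
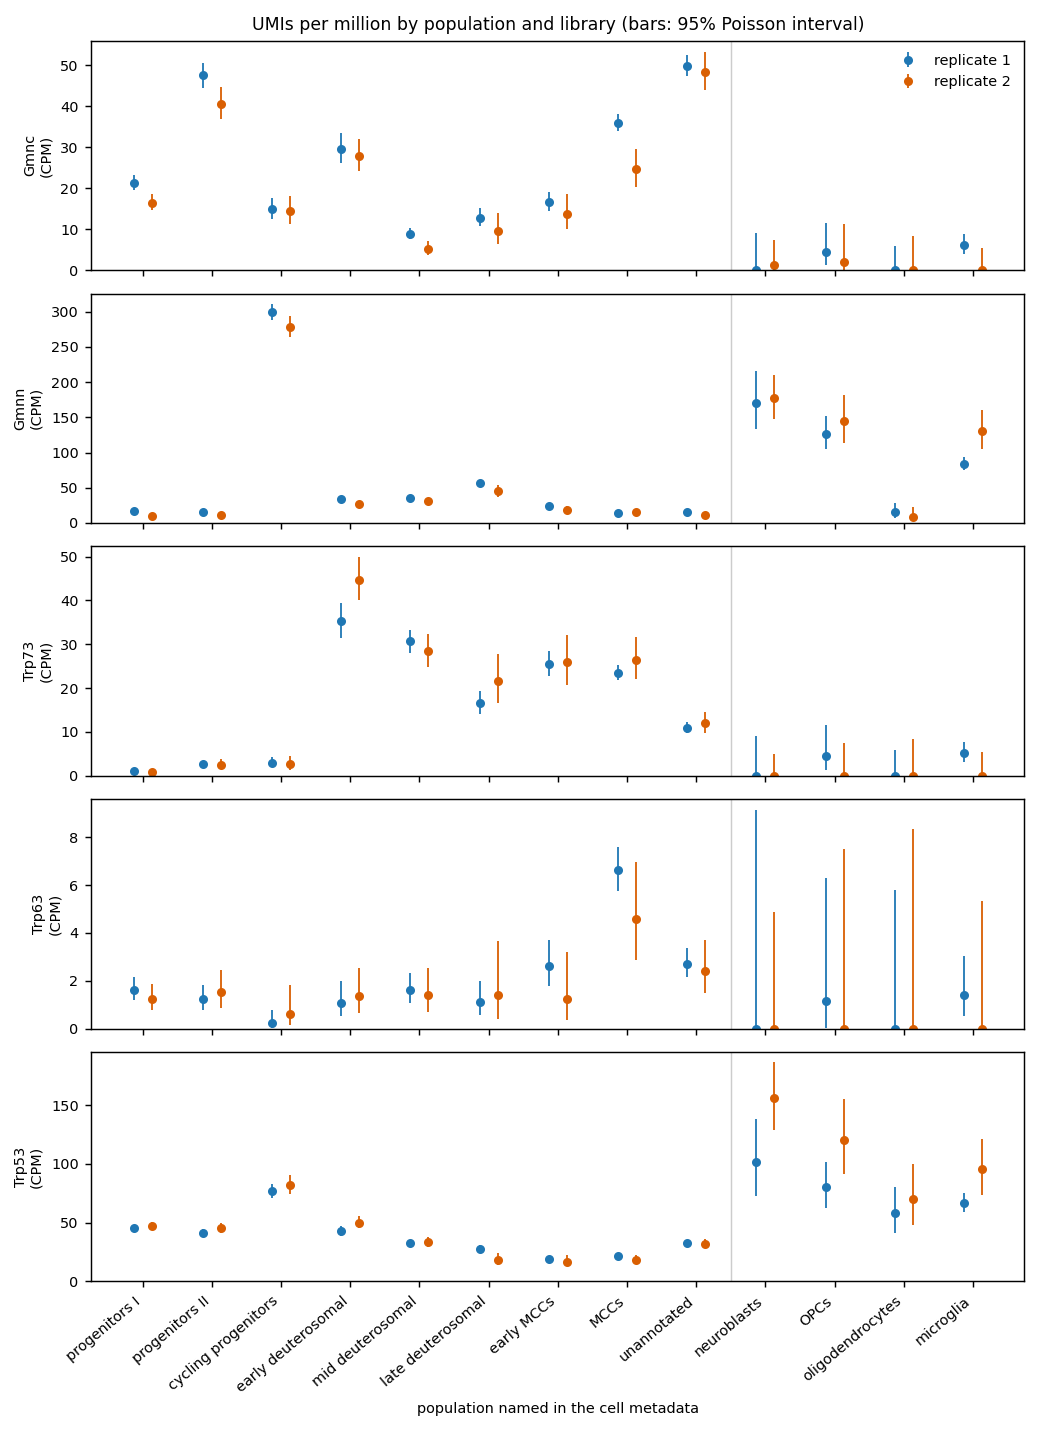
Level of each gene (CPM, linear axis from 0) in 13 populations, as 1 point per library with its 95% Poisson interval for counting error. Gmnc is highest in unannotated cells and progenitors II, followed by MCCs and early deuterosomal cells, which overlap, with mid deuterosomal cells near 7 CPM on average. Geminin is highest in cycling progenitors, and Trp73 steps up in early deuterosomal cells.

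Tests were edgeR quasi-likelihood tests on counts summed per library and population, with the library as a block and Benjamini-Hochberg adjustment over 15877 genes, and SE is the standard error of the log2 fold change. From progenitors I to II Gmnc rose by 1.14 ± 0.13 (SE), a 2.20-fold difference, with an adjusted p of 1.1e-05 by edgeR, in a comparison in which 7.17% of genes passed, 4.45% upward. Without the library block its adjusted p was 0.0639. Early deuterosomal cells held 1.56-fold less Gmnc than progenitors II, a log2 change of -0.64 ± 0.14 (edgeR adjusted p = 0.00126, 31.4% of genes passed). That call was lost without the block (adjusted p = 0.153). The next step, from early to mid deuterosomal cells, had the largest change of Gmnc, -1.85 ± 0.18 or 3.61-fold lower, with an edgeR adjusted p of 1.17e-08 and 49% of genes past the test. Late against mid deuterosomal cells gave 0.56 ± 0.22 (edgeR adjusted p = 0.0745, 21.8% of genes passed), a change that passed under DESeq2 (adjusted p = 0.0489), RLE scaling (0.0278) and without unannotated cells (0.0457). Early MCCs against late deuterosomal cells gave 0.40 ± 0.22 (edgeR adjusted p = 0.199, 22.8% of genes passed), and 0.97 with an adjusted p of 0.0345 in thinned cells. MCCs against early MCCs gave a rise of 1.02 ± 0.17 or 2.03-fold (edgeR adjusted p = 0.000284, 10.9% of genes passed), which was lost without the block (0.156). At the last step 4.56% of all genes rose. Each of these changes had the same sign in both libraries. All cells were taken after 2 days of differentiation, so a rise or fall between stages is a difference between populations sampled together.

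**Figure D2:**
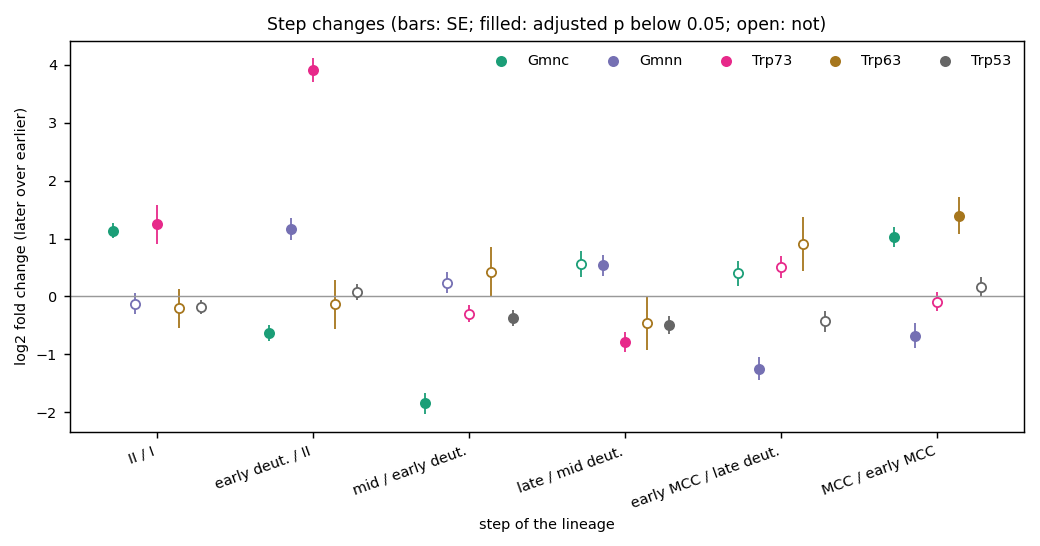
Log2 fold change of each gene (later over earlier stage) at 6 steps of the lineage, with standard errors, where filled points passed the adjusted p threshold of 0.05 and open points did not. Gmnc rises at the first step and falls at the next pair, while Trp73 rises by 3.91 at entry into early deuterosomal cells.

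Shares of cells with at least 1 Gmnc UMI followed the levels. After thinning, they were 9.04% (95% exact interval 7.89 to 10.3) and 6.19% (4.90 to 7.70) in progenitors I and 19.1% (17.2 to 21) and 16.8% (14.2 to 19.8) in progenitors II. Early deuterosomal cells had 11.3% and 12.2%, mid deuterosomal cells 3.89% and 2.02%, and MCCs 15.1% and 12.6%. Without thinning the shares were 34.8% and 35.3% in progenitors II and 13.9% and 9.07% in mid deuterosomal cells, where median depths were 17984 and 20436 UMIs. A population outside the lineage gave the background: 0 of 63 and 0 of 35 thinned oligodendrocytes had a Gmnc UMI, which allows shares of up to 4.76% and 8.57%. Their median depths were 8994.5 and 10979.5 UMIs. The shares in mid deuterosomal cells lie below those limits. Microglia gave a finer value in replicate 1, 2 of 287 thinned cells or 0.697% (0.0845 to 2.49) at a median of 13668 UMIs, below the 3.89% (2.71 to 5.39) of mid deuterosomal cells there. In replicate 2, 0 of 39 microglia allow up to 7.69%, and the mid deuterosomal share of 2.02% was not resolved from that. Gmnc had 26 UMIs (6.06 CPM) in microglia of replicate 1 and 0 in replicate 2, where 3 counts would be 4.33 CPM. Multiciliated markers in microglia also differed between the libraries, as given above, and their part in the Gmnc value was not tested.

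**Figure D3:**
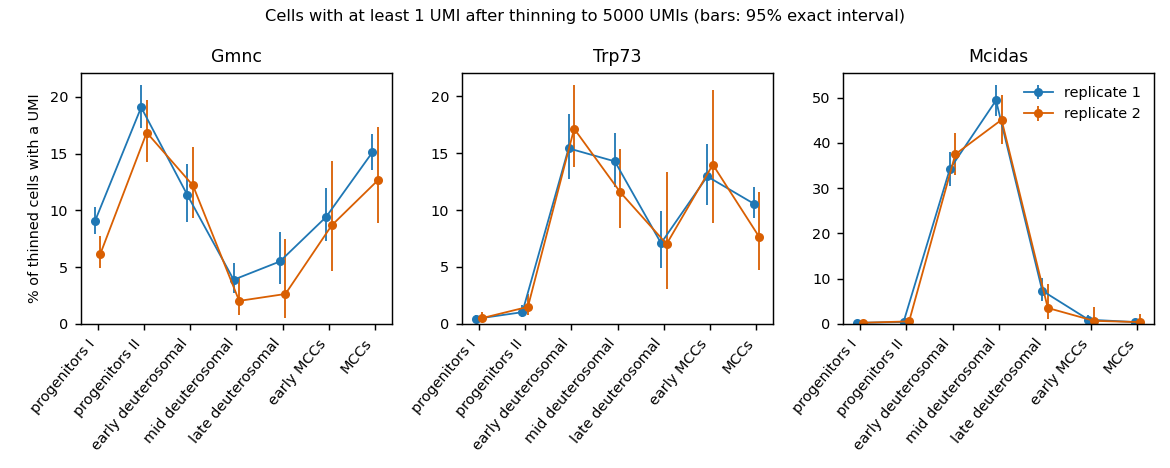
Percentage of cells with at least 1 UMI of Gmnc, Trp73 or Mcidas along 7 stages after thinning each cell to 5000 UMIs, with 95% exact binomial intervals for counting error, 1 line per library. The Gmnc share is highest in progenitors II, the Trp73 share in early deuterosomal cells and the Mcidas share in mid deuterosomal cells.

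Geminin, the licensing inhibitor, was above all a gene of cycling progenitors, with 299 CPM in replicate 1 and 278 CPM in replicate 2, against 17.5 and 10.1 CPM in progenitors I and 15.9 and 10.8 CPM in progenitors II. The difference was 20.2-fold (log2 4.33 ± 0.13, edgeR adjusted p = 1.56e-17), and the libraries of the groups did not overlap. Early deuterosomal cells held 34.5 and 26.8 CPM, mid deuterosomal cells 35.9 and 31.1 CPM, and late deuterosomal cells 56.7 and 44.8 CPM. Early MCCs then held 24.1 and 18.1 CPM and MCCs 13.8 and 15.2 CPM, near the level of the non-cycling progenitors. Among the other cell types, neuroblasts (171 and 177 CPM), OPCs (127 and 145 CPM) and microglia (84.1 and 130 CPM) were high, and oligodendrocytes (15.7 and 9.06 CPM) were low.

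Along the lineage geminin rose 2.24-fold from progenitors II to early deuterosomal cells (log2 1.16 ± 0.19, edgeR adjusted p = 7.48e-05), and its change to mid deuterosomal cells, 0.23 ± 0.18, did not pass (adjusted p = 0.295). From mid to late deuterosomal cells, where 8.61% of all genes rose, it rose by 0.53 ± 0.18 (edgeR adjusted p = 0.0342), a call that was lost under 4 alternatives, with adjusted p from 0.0544 without the deepest cells to 0.271 without the block. It fell 2.38-fold in early MCCs (log2 -1.25 ± 0.20, edgeR adjusted p = 7.7e-05). The last fall, -0.68 ± 0.21 in MCCs (edgeR adjusted p = 0.0439), was -0.79 in replicate 1 and -0.23 in replicate 2, and was lost under 6 alternatives, with adjusted p from 0.0762 to 0.473. The share of cells with a geminin UMI after thinning was 66.2% and 67.0% in cycling progenitors, 15.4% and 9.71% in early deuterosomal cells, and 28.6% and 18.4% in late deuterosomal cells.

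Trp73 had few UMIs before the lineage and stepped up at its entry. Its level was 1.14 and 0.84 CPM in progenitors I (32 and 15 UMIs), 2.59 and 2.55 CPM in progenitors II (53 and 27 UMIs), and 2.87 and 2.67 CPM in cycling progenitors. In early deuterosomal cells it was 35.2 and 44.7 CPM (325 and 327 UMIs), the highest level in each library, and every library of that stage lay above every library of the progenitors. Mid deuterosomal cells held 30.6 and 28.3 CPM, late deuterosomal cells 16.6 and 21.7 CPM, early MCCs 25.5 and 25.9 CPM, and MCCs 23.4 and 26.5 CPM. Neuroblasts and oligodendrocytes had 0 UMIs in both libraries, where 3 counts would be 3.96 to 7.43 CPM. Microglia of replicate 1 held 22 UMIs and those of replicate 2 none, the same split as for Gmnc. The antisense genes Trp73os and Gm26036 lie within the locus, and the labels do not state whether counting used strand, so reads of Trp73 and of these genes may not be separated.

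The step into early deuterosomal cells was 15.0-fold (log2 3.91 ± 0.20, edgeR adjusted p = 6.66e-13), the largest rise of the 5 genes at that step. The earlier difference between progenitors II and I was 2.37-fold (1.24 ± 0.33, edgeR adjusted p = 0.0205). It was lost without the block (adjusted p = 0.17) and in thinned cells (0.11), where 10 and 6 cells of progenitors I had a Trp73 UMI. The change from early to mid deuterosomal cells, -0.30 ± 0.15, did not pass (edgeR adjusted p = 0.0934), but passed with RLE scaling (0.0487), without unannotated cells (0.0283) and without the deepest cells (0.0121). Trp73 fell 1.73-fold from mid to late deuterosomal cells (-0.79 ± 0.18, edgeR adjusted p = 0.00209), a call lost without the block (0.11) and with DESeq2 (0.063). Early MCCs against late deuterosomal cells gave 0.50 ± 0.19 (edgeR adjusted p = 0.0579), which passed under 4 alternatives with adjusted p from 0.0202 to 0.0447. MCCs and early MCCs gave -0.09 ± 0.16 (edgeR adjusted p = 0.786). Cycling against non-cycling progenitors gave 0.72 ± 0.34 (edgeR adjusted p = 0.101), and -0.19 in thinned cells.

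Trp63 was close to the limit of counting, with 443 UMIs in replicate 1 and 113 in replicate 2 over all cells. MCCs held 203 and 22 of these, which is 6.61 and 4.59 CPM, 45.8% and 19.5% of the gene's UMIs from 17.0% and 6.04% of the cells. Early MCCs held 2.60 and 1.25 CPM from 31 and 4 UMIs, and the 3 deuterosomal stages lay between 1.08 and 1.59 CPM. The rise in MCCs over early MCCs was 2.63-fold (log2 1.39 ± 0.32, edgeR adjusted p = 0.00538), with both MCC libraries above both early MCC libraries. It was lost without the block and in thinned cells. Cycling progenitors had 2 and 3 Trp63 UMIs, against 70 and 38 in progenitors I and II together, a ratio of levels of 0.147 (95% counting interval 0.0174 to 0.551) and 0.461 (0.0911 to 1.45). That difference passed the test (edgeR adjusted p = 0.00533) but not in thinned cells (adjusted p = 0.0723), and none of the other comparisons of Trp63 passed. Of stratified epithelium, where p63 is best known, the 4 markers Krt5, Krt14, Krt15 and Epcam summed to 1.47 and 0.626 CPM in MCCs, and were highest in oligodendrocytes, at 25.1 and 43.1 CPM, which had 0 Trp63 UMIs.

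Trp53 was widely present, and as a part of all UMIs it fell after the early deuterosomal stage. Its level was 45.3 and 47.2 CPM in progenitors I, 41.3 and 45.0 CPM in progenitors II, and 42.7 and 50.04 CPM in early deuterosomal cells. The early deuterosomal libraries overlapped those of both progenitor populations, which lay just apart from each other with overlapping counting intervals. Mid deuterosomal cells held 32.8 and 33.1 CPM, late deuterosomal cells 27.3 and 18.1 CPM, early MCCs 18.7 and 16.9 CPM and MCCs 21.8 and 17.9 CPM, all below the progenitors. After thinning, 19.1% and 17.4% of progenitors II and 15.1% and 13.3% of mid deuterosomal cells had a Trp53 UMI. Without thinning the shares lay the other way, 34.9% and 42.6% against 46.1% and 48.7% in the deeper mid deuterosomal cells. Cycling progenitors held 76.8 and 81.9 CPM, 1.70-fold above the non-cycling progenitors (log2 0.77 ± 0.11, edgeR adjusted p = 5.52e-06). Among the 13 populations tested, neuroblasts were highest by mean level, at 102 and 156 CPM, and their range overlapped that of OPCs. The changes from progenitors I to II (-0.18 ± 0.13) and from progenitors II to early deuterosomal cells (0.08 ± 0.14) did not pass (edgeR adjusted p = 0.468 and 0.692). Falls passed from early to mid deuterosomal cells (-0.37 ± 0.14, edgeR adjusted p = 0.0321) and from mid to late deuterosomal cells (-0.49 ± 0.16, edgeR adjusted p = 0.0298). The first was lost without the block and with DESeq2, and the second under 6 alternatives.

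In the order of the populations by mean level, the libraries of only some neighbours lay apart, and with 2 libraries being apart is a description. For Gmnc, the libraries of 6 of the 12 neighbouring pairs did not overlap: unannotated cells above progenitors II, progenitors II above MCCs, early deuterosomal cells above progenitors I, cycling progenitors above late deuterosomal cells, these above mid deuterosomal cells, and these above OPCs, which held 4 and 1 UMIs. MCCs and early deuterosomal cells overlapped. Counting intervals overlapped in each library for unannotated cells and progenitors II, cycling progenitors and late deuterosomal cells, and mid deuterosomal cells and OPCs. Those orders were not resolved at this depth. For late and mid deuterosomal cells the intervals overlapped in replicate 2. For Trp73, 7 pairs were apart, starting with early above mid deuterosomal cells and these above early MCCs, while early MCCs and MCCs overlapped. Counting intervals of Trp73 overlapped in each library for mid deuterosomal cells and early MCCs, and for cycling progenitors and progenitors II. The 7 also include progenitors I above neuroblasts at 0 UMIs, where 3 counts would be 7.43 and 3.96 CPM. These orders were not resolved at this depth. The intervals overlapped in replicate 1 for early and mid deuterosomal cells, and in replicate 2 for MCCs and late deuterosomal cells. Geminin and Trp53 had 6 pairs apart each. Counting intervals of geminin overlapped in each library for neuroblasts and OPCs. For Trp53 this held for cycling progenitors and oligodendrocytes, oligodendrocytes and early deuterosomal cells, progenitors I and II, and mid deuterosomal and unannotated cells. Those orders were not resolved at this depth either. For geminin the intervals also overlapped in replicate 2 for early deuterosomal cells and early MCCs, and for early MCCs and MCCs. For Trp53 they overlapped in replicate 1 for unannotated and late deuterosomal cells. Trp63 had 2 pairs apart, MCCs above unannotated cells, whose intervals overlapped in replicate 2, and cycling progenitors above neuroblasts. The latter pair rests on 2 and 3 UMIs against 0, where 3 counts in neuroblasts would lie above the cycling progenitors, so it was not resolved either.

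The multiciliation genes that work beside Gmnc and Trp73 were read from a fixed list of 15. Already from progenitors I to II, where Gmnc rose, 4 of the 15 rose and none fell, while 4.45% of all genes rose. The median log2 change was 0.62 there, against 0.01 over all genes. Deup1 rose by 1.55 ± 0.22 and Cdc20b by 2.11 ± 0.66 (edgeR adjusted p = 0.00038 and 0.0498). At entry into early deuterosomal cells 12 of the 15 rose and none fell (median log2 change 1.59, against -0.04 over all genes), where 16.9% of all genes rose. Mcidas, the relative of Gmnc, rose by 6.67 ± 0.23 (edgeR adjusted p = 6.78e-16), from 0.98 and 1.13 CPM in progenitors II to 99.1 and 115 CPM. From early to mid deuterosomal cells 7 rose and 1 fell, where 28.2% and 20.8% of all genes did. Foxn4, a factor of multiciliated cells, rose by 2.15 ± 0.22 and the deuterosome gene Ccdc78 by 3.93 ± 0.27 (edgeR adjusted p = 3.44e-07 and 4.14e-11). Mcidas was 133 and 135 CPM in mid deuterosomal cells, the stage with the lowest Gmnc level of the lineage. From mid to late deuterosomal cells 10 of 15 fell, where 13.2% of all genes fell, Mcidas by 3.07 ± 0.17 on the log2 scale and Ccno, a cyclin of centriole amplification, by 2.85 ± 0.28 (edgeR adjusted p = 3.45e-11 and 5.81e-06). Of the 15, 8 fell in early MCCs and 3 in MCCs, and none rose, where 12.4% and 6.29% of all genes fell.

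In single early deuterosomal cells, thinned to equal depth, a Mcidas UMI was found in 25.0% (95% exact interval 15.5 to 36.6) of 72 cells with a Gmnc UMI and 35.3% (31.4 to 39.5) of 563 without one in replicate 1, and in 22.2% (12.0 to 35.6) of 54 and 39.6% (34.7 to 44.6) of 389 in replicate 2. The share was lower beside Gmnc in each library, but the intervals overlap. In mid deuterosomal cells it lay the other way, 61.8% (43.6 to 77.8) of 34 cells with a Gmnc UMI and 48.9% (45.4 to 52.3) of 841 without one in replicate 1, and 85.7% (42.1 to 99.6) of 7 and 44.2% (38.9 to 49.7) of 339 in replicate 2, again with overlapping intervals. Beside Trp73 the share in early deuterosomal cells was higher in each library, with overlapping intervals. Mcidas was seen in 43.9% (33.9 to 54.3) of 98 cells with a Trp73 UMI and 32.4% (28.5 to 36.5) of 537 without one in replicate 1, and in 51.3% (39.6 to 63.0) of 76 and 34.6% (29.7 to 39.7) of 367 in replicate 2. Gmnc and Trp73 were seen together in 9 early deuterosomal cells of each library, and Trp73 was in 12.5% and 16.7% of cells with a Gmnc UMI and in 15.8% and 17.2% of cells without. Geminin was in 16.7% and 7.41% of cells with a Gmnc UMI and in 15.3% and 10.0% of cells without. These are counts of cells of 2 cultures, given with no test, and a cell without a UMI may still express the gene.

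Geminin's partner Cdt1 and the other licensing genes, 20 in all, were read at the same steps. In cycling against non-cycling progenitors 17 of 20 rose and none fell (median log2 change 2.74, against -0.10 over all genes), where 17.4% of all genes rose. Cdc6, which loads the MCM helicase, rose by 6.48 ± 0.32, and Cdc20, an activator of the anaphase-promoting complex that degrades geminin, rose by 6.19 ± 0.15 (edgeR adjusted p = 1.04e-14 and 1.85e-19). At entry into early deuterosomal cells 7 rose and 1 fell, where 16.9% and 14.5% of all genes did. Cdt1 was 57.03 and 56.9 CPM there, against 11.8 and 10.95 CPM in progenitors II and 38.3 and 38.6 CPM in cycling progenitors, so its libraries were highest at this stage. Dtl, part of the ligase that degrades Cdt1, rose by 3.10 ± 0.16 (edgeR adjusted p = 2.2e-13), and the helicase subunit Mcm6 fell by 0.52 ± 0.17 on the log2 scale (edgeR adjusted p = 0.0188). In mid deuterosomal cells 9 fell and 5 rose, where 20.8% and 28.2% of all genes did, so the rises were no more frequent than among all genes, with Mcm5 by -2.65 ± 0.40 and Mcm2 by -2.01 ± 0.26 among the falls (edgeR adjusted p = 5.8e-06 and 8.38e-07) and Cdc20 by 2.12 ± 0.15 among the rises (1.64e-10). From mid to late deuterosomal cells, where geminin rose, Cdt1 fell by 1.71 ± 0.24 and Dtl by 1.52 ± 0.17 on the log2 scale (edgeR adjusted p = 1.33e-05 and 7.01e-07), with 4 of the list higher and 5 lower, where 8.61% and 13.2% of all genes were. In early MCCs 10 fell and 2 rose, where 12.4% and 10.3% of all genes did, with Cdc20 at -5.59 ± 0.20 (edgeR adjusted p = 9.75e-15).

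Genes known as p53 targets, 24 in all, fell more often than they rose where the lineage began. Before that, from progenitors I to II, 4 rose and none fell, where 4.45% of all genes rose. Of the 24, 12 fell and 1 rose in early deuterosomal cells against progenitors II (median log2 change -0.46, against -0.04 over all genes), where 14.5% of all genes fell. Bbc3, which codes for the cell death protein Puma, fell by 1.33 ± 0.18 on the log2 scale (edgeR adjusted p = 2.31e-06), while Gtse1, a G2 phase gene that also restrains p53, was the 1 that rose (1.79 ± 0.31, edgeR adjusted p = 7.83e-05). In mid against early deuterosomal cells 14 fell and 3 rose, where 20.8% of all genes fell, with the death receptor gene Fas at -2.12 ± 0.23 (edgeR adjusted p = 3.17e-06). From mid to late deuterosomal cells 8 rose and 2 fell, where 8.61% and 13.2% of all genes did. Against late deuterosomal cells, 6 were higher and 2 lower in early MCCs, where 10.3% and 12.4% of all genes were. Cdkn1a, the p21 inhibitor of cyclin-dependent kinases, was among the 4 that rose first, but later went another way than most of the list. It rose by 0.91 ± 0.22 from progenitors I to II (edgeR adjusted p = 0.0193), stood at 259 and 210 CPM in progenitors II, 284 and 253 CPM in early deuterosomal cells and 348 and 220 CPM in mid deuterosomal cells, and fell by 1.43 ± 0.23 on the log2 scale in late deuterosomal cells (edgeR adjusted p = 0.000485). Mdm2, the ligase for p53 and itself a target, was 60.1 and 63.8 CPM in progenitors II, 101 and 103 CPM in early deuterosomal cells and 123 and 126 CPM in mid deuterosomal cells. In MCCs, where Trp53 was 21.8 and 17.9 CPM, Mdm2 was 113 and 117 CPM.

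Of 14 regulators of the p53 family, 3 rose and 2 fell at entry into early deuterosomal cells, where 16.9% and 14.5% of all genes did. The DNA damage kinase Atr rose by 1.53 ± 0.15 and Chek2 by 1.13 ± 0.16 (edgeR adjusted p = 2.88e-08 and 6.31e-06). Itch, a ligase for p73 and p63, fell by 0.44 ± 0.12 on the log2 scale (edgeR adjusted p = 0.00841). Atr rose again in mid deuterosomal cells by 1.03 ± 0.14 and fell by 0.99 ± 0.15 on the log2 scale in late deuterosomal cells (edgeR adjusted p = 1.27e-06 and 2.03e-05). In cycling progenitors 6 of the 14 rose and none fell, where 17.4% and 21.3% of all genes did, Chek1 by 3.53 ± 0.13 (edgeR adjusted p = 7.95e-18).

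Notch and BMP signals restrain multiciliated fate, and 18 of their genes were read at the same steps. From progenitors I to II 6 fell and none rose (median log2 change -0.54, against 0.01 over all genes), where 2.73% of all genes fell. The BMP targets Id3 and Id1 fell by 1.91 ± 0.28 and 1.47 ± 0.21 on the log2 scale (edgeR adjusted p = 0.00102 and 0.000491) at the step where Gmnc rose. At entry into early deuterosomal cells 5 fell and 3 rose, where 14.5% and 16.9% of all genes did, so the rises were near the share of all genes, with the Notch ligand gene Jag2 at 3.07 ± 0.45 (edgeR adjusted p = 9.75e-06). From early to mid deuterosomal cells 11 fell and 3 rose, where 20.8% and 28.2% of all genes did, with Id3 at -3.72 ± 0.38 and the ligand genes Jag1 and Dll3 at 2.30 ± 0.52 and 2.06 ± 0.35 (edgeR adjusted p = 2.81e-06, 0.000758 and 2.42e-05). In late deuterosomal cells Id3 rose by 2.62 ± 0.40 (edgeR adjusted p = 0.00044).

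Within the early deuterosomal stage, cell cycle classes were apart for Gmnc and geminin but overlapped for Trp73 and Trp53. Trp63 held at most 9 UMIs in a class and library there. Gmnc was 34.6 CPM in replicate 1 and 35.9 CPM in replicate 2 in cells of class G0, 10.1 and 9.98 CPM in class S (13 UMIs in each library), and 14.6 and 6.55 CPM in class S/G2 (5 UMIs each). The G0 libraries lay above all S and S/G2 libraries. Geminin was 26.2 and 19.5 CPM in G0, 52.9 and 31.5 CPM in S, and 87.8 and 47.2 CPM in S/G2, with every S and S/G2 library above both G0 libraries. Trp73 was 33.1 and 42.7 CPM in G0, 46.7 and 49.1 CPM in S, and 23.4 and 39.3 CPM in S/G2, which overlap. Trp53 was 43.2 and 45.8 CPM in G0, 48.2 and 60.6 CPM in S and 29.3 and 53.7 CPM in S/G2, which also overlap. G1 and G2/M cells of this stage were fewer than 20 in a library and were left out.

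In the fit by population and class (13634 genes), the mean of S and S/G2 against G0 of early deuterosomal cells was -1.85 ± 0.25 for Gmnc, 3.61-fold lower, with an edgeR adjusted p of 3.34e-08, where 25.8% of genes passed. Geminin was 2.23-fold higher (1.15 ± 0.20, edgeR adjusted p = 3.06e-05), a call lost in thinned cells (adjusted p = 0.122). Trp73 gave 0.09 ± 0.17 and Trp53 0.16 ± 0.17, and neither passed (edgeR adjusted p = 0.751 and 0.541). At the same split 9 of the 15 multiciliation genes rose and none fell, where 12.5% of all genes rose, with Foxn4 at 2.63 ± 0.31 and the deuterosome gene Deup1 at 1.38 ± 0.13 (edgeR adjusted p = 4.54e-10 and 4.02e-08). Of the 24 p53 targets 21 were tested in this fit, and 10 fell and 1 rose, where 13.3% and 12.5% of all genes did.

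**Figure D4:**
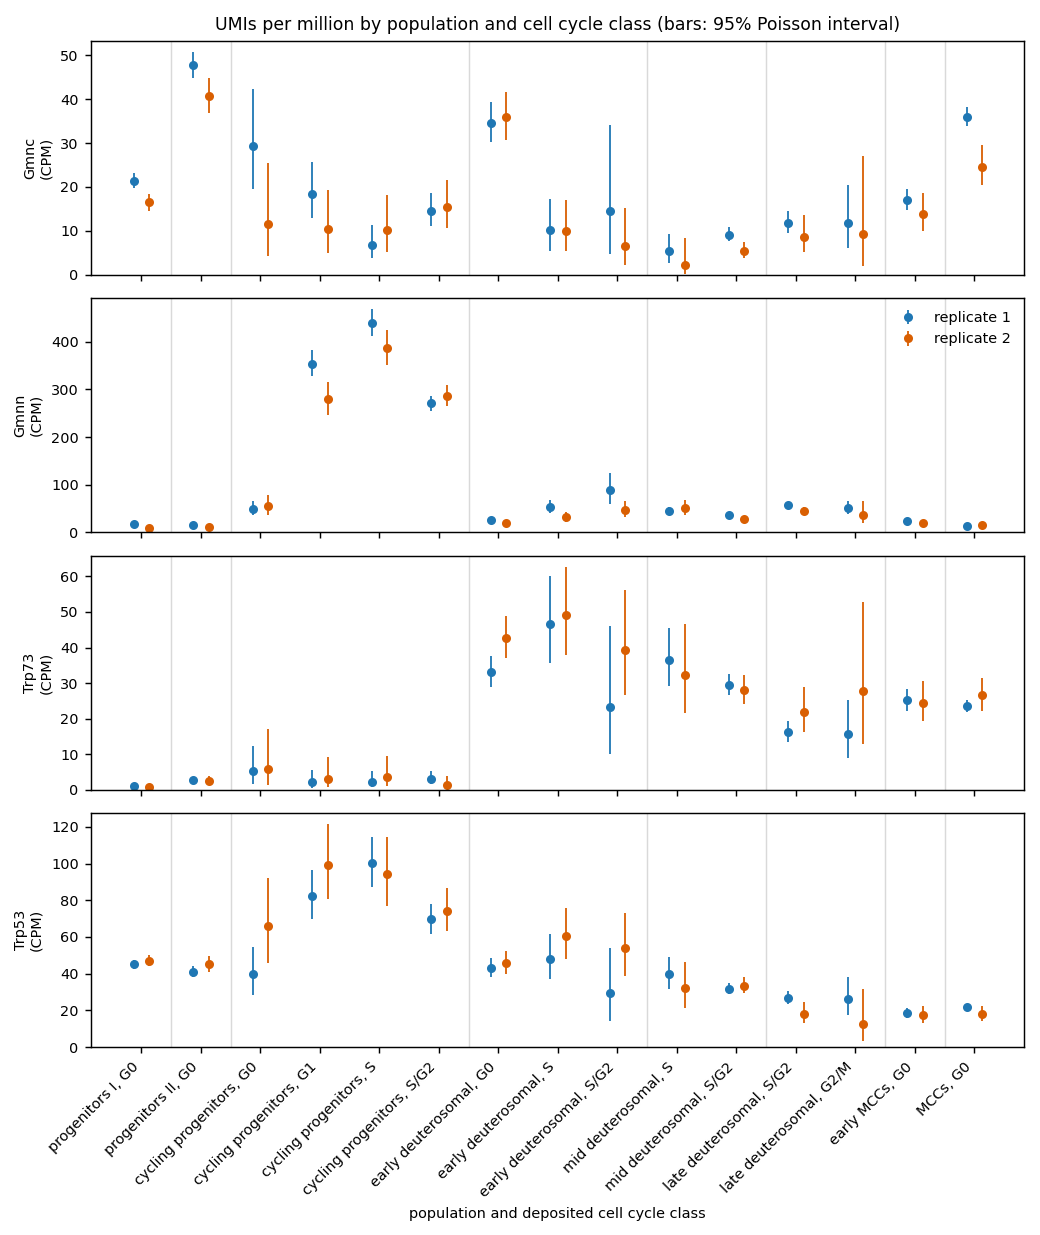
Level of Gmnc, geminin, Trp73 and Trp53 (CPM, linear axis from 0) for population and cycle class pairs of progenitors and the lineage, as 1 point per library with its 95% Poisson interval. Within early deuterosomal cells Gmnc is near 35 CPM in G0 and near 10 CPM in S, while the Trp73 points of the classes overlap.

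In cycling progenitors the same split gave other values. Gmnc was 29.3 and 11.7 CPM in G0 (28 and 6 UMIs), 18.5 and 10.5 CPM in G1, 6.86 and 10.2 CPM in S, and 14.5 and 15.5 CPM in S/G2, so the libraries disagree on the order. The fitted difference of S and S/G2 against G0 and G1 was -0.78 ± 0.25 (edgeR adjusted p = 0.0286, 13% of genes passed), but it was -1.14 in replicate 1 and 0.24 in replicate 2. Geminin was 49.3 and 54.4 CPM in G0, 354 and 279 CPM in G1, 440 and 387 CPM in S, and 271 and 287 CPM in S/G2. Its fitted difference was 1.45 ± 0.12, 2.74-fold (edgeR adjusted p = 5.95e-12), where 8.33% of all genes were higher and 4.7% lower. Trp53 was 39.8 and 66.0 CPM in G0 and 100 and 94.3 CPM in S, and its difference of 0.36 ± 0.13 did not pass (edgeR adjusted p = 0.0689), although it did with no low count filter (0.0286) and without the deepest cells (0.0402). Trp73 held 3 to 13 UMIs in each class and library and gave -0.45 ± 0.49 (edgeR adjusted p = 0.654).

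Cells of the same class, S/G2, were compared between cycling progenitors and mid deuterosomal cells, the comparison with the highest share of genes past the test, 65.8%. Trp73 was 3.14 and 1.37 CPM in S/G2 cycling progenitors and 29.5 and 27.9 CPM in S/G2 mid deuterosomal cells, 11.3-fold higher (log2 3.50 ± 0.27, edgeR adjusted p = 9.06e-18). Geminin was 271 and 287 CPM in the first and 35.5 and 28.1 CPM in the second, 8.79-fold lower (-3.14 ± 0.14, edgeR adjusted p = 6.84e-22). Trp53 was 69.6 and 74.2 CPM against 31.7 and 33.5 CPM, 2.21-fold lower (-1.14 ± 0.14, edgeR adjusted p = 5.21e-11). Gmnc was 14.5 and 15.5 CPM against 9.11 and 5.44 CPM, 1.92-fold lower (-0.94 ± 0.23, edgeR adjusted p = 0.000226). Trp63 had 3 UMIs in the first group over both libraries, and its change did not pass (edgeR adjusted p = 0.0655). The libraries of the groups did not overlap for these 4 called genes.

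Of the licensing genes 14 of 20 were lower in S/G2 mid deuterosomal cells and 1 higher, where 34.2% and 31.7% of all genes were. The log2 changes were -6.55 ± 0.27 for Mcm5 and -5.12 ± 0.22 for Fbxo5, which holds back the anaphase-promoting complex (edgeR adjusted p = 2.91e-31 and 1.13e-23). The multiciliation list had 13 of 15 higher and 2 lower, the latter being the E2F partners Tfdp1 at -1.43 ± 0.12 and E2f5 at -0.84 ± 0.14 (edgeR adjusted p = 8.57e-17 and 3.24e-07). Among the regulators of p53, Mdm2 was higher by 1.27 ± 0.14 and Chek1 lower at -3.24 ± 0.26 (edgeR adjusted p = 1.1e-10 and 1.75e-17). Of the 21 p53 targets tested, 14 were lower and 4 higher.

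Over all cells of a class, whatever their population, Gmnc was highest in G0, at 35.5 and 29.1 CPM, and between 7.001 and 13.7 CPM in the 4 other classes. Trp73 was 12.8 and 10.99 CPM in G0, 5.93 and 12.0 CPM in G1, and between 19.9 and 25.4 CPM in S, S/G2 and G2/M. Geminin was 17.1 and 12.7 CPM in G0, 211 and 181 CPM in G1, 189 and 169 CPM in S, 82.4 and 86.5 CPM in S/G2, and 44.9 and 33.0 CPM in G2/M. Trp53 was 33.9 and 40.2 CPM in G0, highest in G1 at 74.8 and 93.0 CPM, and 38.7 and 38.6 CPM in G2/M. The classes hold different populations, G0 most of the progenitors and MCCs and S/G2 most of the mid deuterosomal cells, so these values mix class with stage.

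The genes whose pattern was most like each member were taken by Pearson correlation of log2(CPM + 1) over the 26 sums of population and library, among 10811 genes, as a description of points that share libraries and depth. For Gmnc they were Traf1 (r = 0.964), Foxo1 (0.96), Pgm5 (0.958), Sema3b and Ppp1r1b (both 0.953). Geminin was followed by the genes of chromosome cohesion, mitosis and replication Cdca5 (0.962), Pimreg, Aurkb, Pole and Chtf18 (0.956). Trp73 was followed by Cep126 (0.965), Cfap161, Xrra1, Lrrc10b and Agbl4 (0.95), of which Cep126 and Cfap161 code for proteins of centrosome and cilium. Trp63, at a mean of 1.43 CPM, had Wdyhv1 (0.916), Ctnna3, Maob, Acbd7 and Hspa1a (0.891). Trp53 had the tubulin gene Tubb5 (0.969), Raly, Abracl, Slc7a1 and Basp1 (0.931). Among the members, r was 0.64 for Gmnc and Trp73, 0.78 for Gmnc and Trp63, 0.74 for Trp73 and Trp63, -0.79 for Trp73 and Trp53, and -0.41 for Gmnc and geminin.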

How the data were processed

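The authors deposited raw UMI counts for every gene in every cell. The submitters' processing notes name Cell Ranger, in versions 3 and 5.0.1, and the build mm10. The aligner settings, cell filter, doublet treatment and the naming of populations and classes are not stated in the labels. All 16401 cells were kept, and 607 cells under 5000 UMIs were left out where cells were thinned. Deposited counts were summed per library and population (13 populations, 26 sums) or per library, population and class (19 pairs, 38 sums), where each library had at least 20 cells, which left out fibroblasts. edgeR 4.0.16 (R 4.3.3) with TMM factors of 0.739 to 1.20, its default filter and robust quasi-likelihood tests was used with the library as a block. All groups shared 1 spread (12 and 18 residual degrees of freedom), tests were two-sided, and Benjamini-Hochberg adjustment was over all genes within a comparison. The cells of a replicate number come from 1 culture, and this pairs the sums. Between populations of 1 library, the correlation of deviations from population means had its median at 0.184 and went down to -0.00168. The submitters call the libraries duplicates and do not say which mice went into each. With the block, p-values rest on how far population differences vary between these 2 libraries, once the shift common to a library is taken out. They do not measure the spread between libraries or between mice. Levels are CPM of summed counts with Poisson intervals, and shares carry exact Clopper-Pearson 95% intervals (scipy 1.17.1). These cover counting error only, and a count of 0 allows 3 counts. Named list genes are up to 2 per direction and list among those past the test with 1 sign in both libraries, and levels of Mcidas, Cdt1, Cdkn1a, Mdm2 and Foxj1 were added after their values were seen. The 5 genes, the lists and the comparisons were chosen with earlier results of these data known. The fit was also run on simulated counts drawn from a single mean profile, with no library effect and no population differences besides those put in. Such counts cannot check the block, and no result of that run is used here. Alternatives were a fit with no block, DESeq2 1.42.0, RLE factors, no filter, thinned cells, leaving out the 5% deepest cells or unannotated cells, and each library alone (log2 CPM with a prior count of 2, no test). A comparison of G2/M late deuterosomal cells with cycling progenitors was planned but not run, as the latter were 17 and 8 cells.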

Additional observations from a re-analysis of the deposited data

How the results depend on the processing

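With no replicate block, genes past the test fell from 1139 to 89 (progenitors II against I), 4991 to 1843 (early deuterosomal against progenitors II), 7780 to 4541 (mid against early), 3462 to 996 (late against mid), 3613 to 1278 (early MCCs against late deuterosomal), 1723 to 135 (MCCs against early MCCs), 6135 to 2822 (cycling progenitors), 3515 to 1762 (classes of early deuterosomal cells) and 1777 to 905 (classes of cycling progenitors). In thinned cells they fell to 1837 (late against mid), 2283 (early MCCs), 1621 and 771 (the same classes) and 5752 of 8974 (S/G2). Without the block, Gmnc missed the threshold at 1.14, -0.64 and 0.98 (progenitors II, early deuterosomal cells, MCCs) and -0.74 (classes of cycling progenitors), Trp73 at 1.25 (progenitors II) and -0.75 (late deuterosomal cells), and geminin at 0.53 (late deuterosomal cells) and -0.60 (MCCs). DESeq2 lost geminin at 0.62 and -0.58 and Trp73 at -0.64 in those late stages and gained Gmnc at 0.68 (late deuterosomal cells). RLE factors lost geminin at -0.69 (MCCs) and gained Gmnc at 0.66 (late), Trp73 at -0.35 (mid) and 0.59 (early MCCs). With no low count filter geminin missed at 0.52 (late) and -0.65 (MCCs), and Trp73 passed at 0.51 (early MCCs). Thinning lost Trp73 at 1.13 (progenitors II), geminin at 0.86 (early deuterosomal classes) and Gmnc at -0.63 (cycling classes), gained Gmnc at 0.97 and Trp73 at 0.84 (early MCCs), and reversed Trp73 to -0.19 (cycling progenitors) and Trp63 to 0.11 (progenitors II) and 0.12 (late). Without the deepest cells geminin missed at 0.60 and -0.63, Trp73 passed at -0.46 (mid), and Trp63 reversed to 0.040 (early deuterosomal) and -0.19 (mid). Without unannotated cells geminin missed at -0.66, and Trp73 (-0.41 mid, 0.54 early MCCs) and Gmnc (0.61 late) passed. In the single libraries Trp73 ranged from 0.97 to 1.33 (progenitors II), 3.61 to 3.97 (early deuterosomal), -0.12 to 0.047 (MCCs), 0.59 to 0.66 (cycling) and -0.078 to 0.023 (early deuterosomal classes). Geminin ranged from 0.41 to 0.57 (late), -0.79 to -0.23 (MCCs) and 1.43 to 1.496 (cycling classes), and Gmnc from 0.36 to 0.52 (early MCCs) and, with its sign reversed in replicate 2, from -1.14 to 0.24 (cycling classes). The cause of these changes was not tested. With 2 libraries, differences resting on few UMIs, such as those of Trp63 or of Trp73 in progenitors, could not be resolved at this depth.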

Other observations

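Fibroblasts, with 18 and 22 cells, entered no comparison. They held 0 UMIs of Gmnc, Trp73 and Trp63 in both libraries, where 3 counts would be 11.4 and 8.92 CPM, and geminin was 68.6 and 47.6 CPM and Trp53 118 and 89.2 CPM.

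Unannotated cells supplied the most Gmnc UMIs in replicate 1, 29.3% of the gene's UMIs from 18.0% of the cells, and 25.6% from 12.9% in replicate 2. Their Trp73 level was 10.9 and 12.0 CPM, between the progenitors and the lineage, and 1.52% and 1.27% of thinned cells had a Mcidas UMI. In MCCs the 118 Gmnc UMIs of replicate 2 were 7.15% of the gene's UMIs, and the 1105 of replicate 1 were 21.7%.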
